A study of Mus musculus with 7 samples.

Results

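The genes described here are 8 that carry antigen presentation by MHC class II: Cd74, H2-Aa, H2-Ab1, H2-Eb1, H2-DMa, H2-DMb1, Ciita and Ctss. They were taken by symbol from a liver RNA-seq count table, in which all 8 were found among 14889 listed genes, and all 8 passed the count filter that left 13693 genes for testing. The livers came from 7 mice of strain C57BL/6 that lacked apolipoprotein E (ApoE-/-) and were 4 months old. All had been kept on Western diet for 3 months. The control group of 4 mice received saline, and 3 mice received PX-478 at 40 mg/kg, both as intraperitoneal injections on a schedule called bi-weekly. PX-478 is a small molecule given to lower HIF-1α, a transcription factor that oxygen shortage stabilises. All mice, controls included, carried the ApoE deletion and ate the same diet, so no liver on a normal diet or with intact ApoE was compared. The labels number the mice and say nothing of separate housing or processing, and p-values here measure only the spread between these libraries, which may be technical.

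MHC class II molecules display peptides from engulfed and endosomal protein to CD4+ T cells. An α chain and a β chain pair in the endoplasmic reticulum with the invariant chain, which blocks the groove and guides the complex to endosomes. There cathepsin S trims the invariant chain to a short fragment, and the DM heterodimer exchanges that fragment for antigenic peptide. In liver these genes are expressed mainly by dendritic cells, B cells and macrophages, including Kupffer cells, and at lower levels by sinusoidal endothelium. Mice of the C57BL/6 strain carry the b haplotype, in which the α chain gene of the I-E molecule is not transcribed. Their surface class II is therefore I-A, the pair made from H2-Aa and H2-Ab1, although H2-Eb1, the I-E β chain gene, is transcribed.

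Class II promoters share a compact module in which an X box, bound by the RFX complex, stands upstream of a Y box, bound by NF-Y. CIITA, the product of Ciita, does not bind DNA itself and docks on these factors. RefSeq promoter entries of the GRCm38.p6 assembly, which has the coordinates of mm10, were found for 5 of the 8 genes. Of these, H2-Aa, H2-Eb1 and H2-DMb1 hold an X half-site followed by a Y box within the 250 bases before the start. The letters searched were GNAACT, then TGATTGG after a gap of 10 to 45 bases, on both strands. Among all 32851 promoter entries, 0.268% hold this arrangement and 7.23% hold the Y box letters alone. The windows below show the module because these 3 genes share it beyond their function, with both boxes in capitals. They lie at chr17:34287855-34287916 on the minus strand (H2-Aa), chr17:34305764-34305824 on the plus strand (H2-Eb1) and chr17:34153085-34153146 on the plus strand (H2-DMb1).
H2-Aa: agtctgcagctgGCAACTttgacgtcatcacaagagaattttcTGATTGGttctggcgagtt
H2-Eb1: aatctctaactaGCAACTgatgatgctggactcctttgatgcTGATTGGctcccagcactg
H2-DMb1: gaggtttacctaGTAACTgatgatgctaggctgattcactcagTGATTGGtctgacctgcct
The gap between the boxes is 25 bases in H2-Aa and H2-DMb1 and 24 in H2-Eb1, and the Y box ends 43, 56 and 54 bases before the start of the RefSeq entry in H2-Aa, H2-DMb1 and H2-Eb1. For H2-DMb1 that start lies downstream of the GENCODE gene start given below, so its window falls inside the GENCODE gene.

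The Ctss entry holds other letters. Its window at chr3:95526745-95526785 on the plus strand carries an interferon response element (GAAA, any base at NN, then GAAA), in capitals, which 2.98% of all promoter entries hold on either strand.
Ctss: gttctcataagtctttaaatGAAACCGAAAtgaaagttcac
Neither pattern was found in the H2-DMa entries. These letter matches describe the sequence and were not tested for factor binding.

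Libraries held 10285776 to 17257304 counted reads. Levels are given as CPM, reads of a gene scaled to library size, after the TMM correction for differences in library composition. The liver label was checked on Alb, the gene of serum albumin, which stood at 16736 to 25849 CPM. The leukocyte gene Ptprc, which encodes CD45, stood at 8.64 to 18.4 CPM. The libraries labelled saline 4 and PX-478 2 stood apart. Saline 4 did so in class II genes and in genes picked for a like pattern, among them Saa1, Saa2 and Itih4, as given below. PX-478 2 had 22.4% of its reads on mitochondrially encoded genes against 27.1% to 36.7% elsewhere.

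No class II gene differed between PX-478 and saline livers beyond the spread between libraries. All 8 had a negative log2 fold change (PX-478 against saline), where 50.3% of all tested genes did, and their median was -0.28 beside -0.0035 over all genes. None of the 8 passed an adjusted p of 0.05 in edgeR's quasi-likelihood test, which called 0.0073% of the genes tested. None had an unadjusted p under 0.05 in edgeR, DESeq2 or limma-voom, where edgeR gave such a p to 6.97% of all genes, 3.48% being lower. That background was 954 genes, and it was 554 without PX-478 1. DESeq2 called 0.639% of the genes it adjusted, 0.289% as lower, and none of the 8. In all 8 the values of the groups overlapped, while 4.29% of all genes lay wholly lower and 4.3% wholly higher in PX-478. These are whole-liver values, in which fewer cells of a type and less RNA per cell cannot be told apart.

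Cd74 encodes the invariant chain and had the highest level of the 8. It stood at 100.03, 99.7, 107 and 185 CPM in saline 1 to 4 and at 96.1, 107 and 100.2 CPM in PX-478 1 to 3. The livers other than saline 4 thus lay within a narrow band that held both groups, and saline 4 lay far above it. The means were 123 ± 41.4 CPM (SD, n = 4) in saline and 101.1 ± 5.49 CPM (SD, n = 3) in PX-478. edgeR put its log2 fold change at -0.28 (SE 0.23, 95% interval -0.79 to 0.22, adjusted p = 0.846). Without saline 4 it was -0.02 (SE 0.18), against a saline mean of 102 ± 4.30 CPM.

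**Figure D1:**
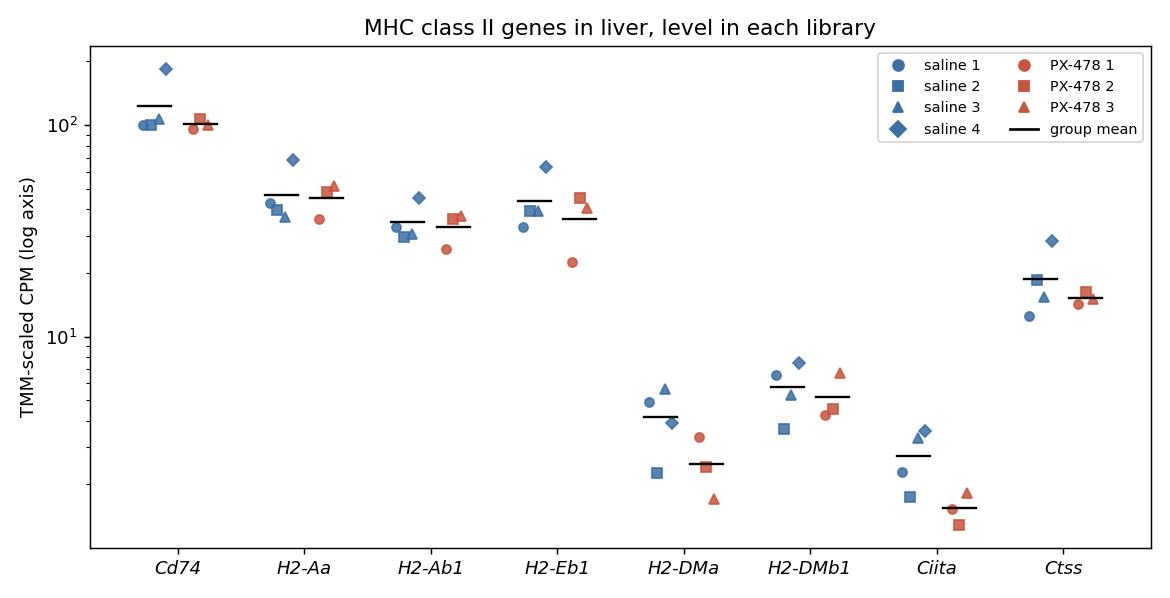
TMM-scaled CPM (log axis) of each class II gene in 4 saline (blue) and 3 PX-478 (red) libraries, one symbol per library, with group means as bars. Saline 4 (blue diamond) is the highest library for 7 of the 8 genes, and the groups overlap in every gene.

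H2-Aa encodes the α chain of I-A and lies on chromosome 17 from 34282744 to 34287823 in mm10. It stood at 42.9, 39.7, 36.9 and 68.3 CPM in saline 1 to 4 and at 36.02, 48.1 and 51.6 CPM in PX-478 1 to 3. PX-478 2 and PX-478 3 were above saline 1 to 3, and PX-478 1 was the lowest of all. This gave a log2 fold change of -0.05 (SE 0.24, 95% interval -0.57 to 0.46, adjusted p = 0.973 in edgeR), and it turned to 0.18 without saline 4 and to 0.087 without PX-478 1.

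H2-Ab1, the I-A β chain gene, lies on chromosome 17 from 34257689 to 34269419 and followed the same order of PX-478 libraries. Its levels were 33.02, 29.7, 30.5 and 45.4 CPM in saline 1 to 4 and 26.1, 36.2 and 37.0 CPM in PX-478 1 to 3. In edgeR it had a log2 fold change of -0.07 (SE 0.21, 95% interval -0.53 to 0.40, adjusted p = 0.966), or 0.089 without saline 4 and 0.079 without PX-478 1. The estimates of both I-A chains thus turned sign with 1 library left out. H2-Ab1 over H2-Aa stayed between 0.665 and 0.828 in all 7 libraries, with means of 0.753 ± 0.0675 in saline and 0.731 ± 0.0181 with PX-478 (two-sided exact permutation p = 0.657, or 0.789 when adjusted over 6 ratios between the 8 genes). With 35 assignments of 7 livers, a single ratio could not pass after that adjustment, whatever its size.

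H2-Eb1, the I-E β chain gene, lies on chromosome 17 from 34305867 to 34316674. It stood at 33.1, 39.3, 39.3 and 63.5 CPM in saline 1 to 4 and at 22.4, 45.1 and 40.7 CPM in PX-478 1 to 3. PX-478 1 was well under every other library here, while PX-478 2 and PX-478 3 were above saline 1 to 3. edgeR put its log2 fold change at -0.28 (SE 0.28, 95% interval -0.88 to 0.32, adjusted p = 0.867). It was -0.029 without PX-478 1 and -0.045 without saline 4. The H2-Eb1 locus overlaps an antisense gene, Gm20513, on the other strand, and reads from both cannot be told apart where strand was not used in counting.

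The 2 subunits of the DM peptide exchanger differed in their point estimates. H2-DMa, the α subunit gene, lies on chromosome 17 from 34119541 to 34139101. It had 75, 26, 85 and 62 reads in saline 1 to 4 and 48, 32 and 26 reads in PX-478 1 to 3, or 4.88, 2.26, 5.62 and 3.88 CPM against 3.34, 2.42 and 1.70 CPM. Saline 2 was as low as the PX-478 libraries, and H2-DMa was the one class II gene in which saline 4 was not the highest. This gave a log2 fold change of -0.75 (SE 0.43, 95% interval -1.67 to 0.18, adjusted p = 0.766 in edgeR), and it was -0.78 without saline 4. Its locus overlaps Brd2, a bromodomain gene on the other strand, which stood at 157 CPM on average in control livers and 143 CPM in PX-478.

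H2-DMb1, a β subunit gene on chromosome 17 from 34153072 to 34160230, stood at 6.58, 3.64, 5.29 and 7.52 CPM in saline 1 to 4. In PX-478 1 to 3 it stood at 4.25, 4.54 and 6.72 CPM, all within the saline range. In edgeR it had a log2 fold change of -0.16 (SE 0.34, 95% interval -0.89 to 0.57, adjusted p = 0.942), or -0.0036 without saline 4. H2-DMb1 has a close copy, H2-DMb2, that was not found among the genes listed, so the split of reads between the copies is uncertain. H2-DMa over H2-DMb1 was 0.735 ± 0.237 in saline and 0.524 ± 0.267 with PX-478 (exact permutation p = 0.343, two-sided, adjusted 0.514), so a difference between the subunits was not shown.

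Ciita, the gene of the class II transactivator, lies on chromosome 16 from 10480059 to 10528418 and was the least abundant of the 8. It had 35, 20, 50 and 57 reads in saline 1 to 4 and 22, 17 and 28 reads in PX-478 1 to 3. These are 2.28, 1.73, 3.30 and 3.57 CPM against 1.53, 1.29 and 1.83 CPM. Saline 2 lay between the PX-478 libraries, and the other saline libraries lay above all 3. Its log2 fold change of -0.81 was the most negative of the 8 (SE 0.47, 95% interval -1.83 to 0.20, adjusted p = 0.766 in edgeR), and without saline 4 it was -0.66. Ciita over Cd74, the regulator beside its target, was 0.0226 ± 0.00592 in saline and 0.0154 ± 0.00314 with PX-478 (exact permutation p = 0.114, two-sided, adjusted 0.514). The Ciita locus overlaps Dexi on the other strand, which stood at 39.5 ± 6.01 and 40.5 ± 7.33 CPM.

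In the authors' deposited table, Ciita has a log2 fold change of -0.82 with an unadjusted p of 0.00350, and H2-DMa one of -0.75 with 0.0109. The table holds 2 count columns per mouse that differ by less than sampling noise. Entering all 14 columns as separate libraries in edgeR gave unadjusted p of 0.00339 for Ciita and 0.0111 for H2-DMa, against 0.108 and 0.104 with 1 library per mouse. Ciita then had an adjusted p of 0.0398, and 717 genes were called lower and 643 higher, against 1 and 0. The columns of a mouse are not independent, so the call of Ciita in that fit does not show a difference between groups of mice.

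Ctss encodes cathepsin S and lies on chromosome 3 from 95526786 to 95556403. It stood at 12.6, 18.6, 15.3 and 28.2 CPM in saline 1 to 4 and at 14.2, 16.2 and 15.0 CPM in PX-478 1 to 3. The PX-478 values spanned a small part of the saline range. edgeR put its log2 fold change at -0.30 (SE 0.27, 95% interval -0.88 to 0.28, adjusted p = 0.851), or -0.032 without saline 4. Ctss over Cd74 was nearly the same in the 3 PX-478 libraries, between 0.148 and 0.151, and ran from 0.126 to 0.186 in saline.

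**Figure D2:**
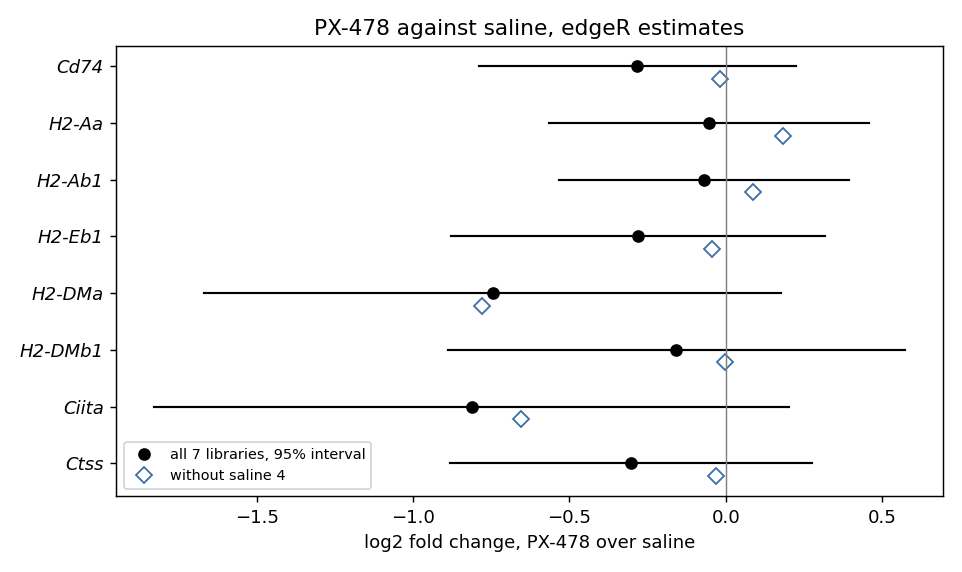
edgeR log2 fold change (PX-478 against saline) for the 8 class II genes with 95% intervals (black), and the estimate without saline 4 (open blue diamonds). Every interval crosses 0, and without saline 4 the estimates of 6 genes lie between -0.045 and 0.18, while Ciita and H2-DMa lie at -0.66 and -0.78.

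Saline 4 stood further from the other libraries than the treatment groups did from each other. The summed level of the 8 genes was 235, 235, 244 and 405 CPM in saline 1 to 4 and 204, 261 and 255 CPM in PX-478 1 to 3. Saline 4 was the highest library for 7 of the 8 genes, and PX-478 1 the lowest for 4. The group means of the sum were 280 ± 83.8 CPM in control livers and 239.8 ± 31.2 CPM in PX-478, a difference of -39.8 CPM that became 2.03 CPM without saline 4. Leaving out saline 4 left 6 genes with a negative and 2 with a positive log2 fold change, and a median of -0.025.

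**Figure D3:**
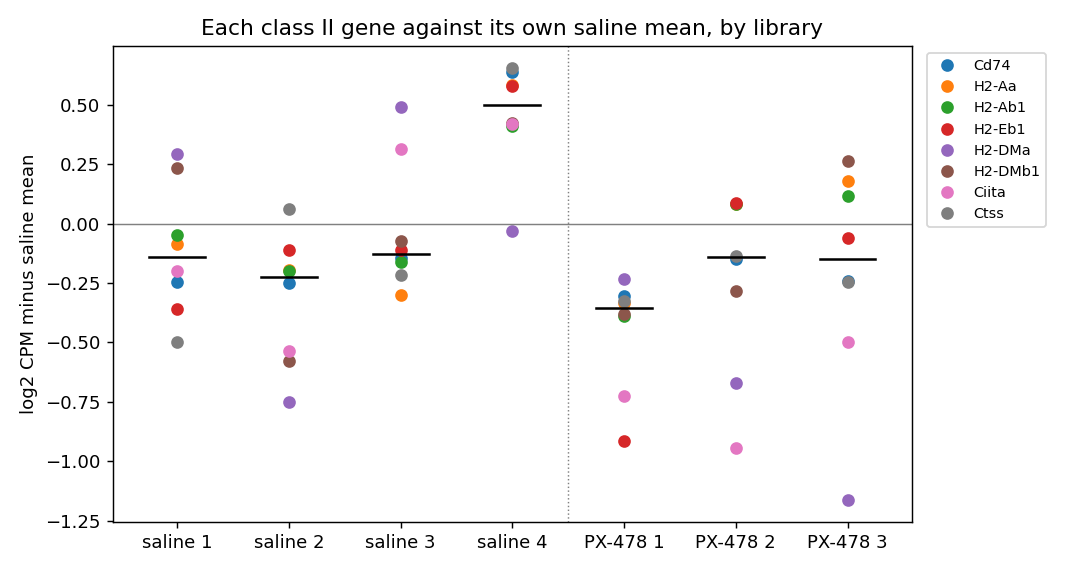
Log2 CPM of each class II gene minus that gene's saline mean, for each of the 7 libraries, with the median of the 8 genes as a bar. The genes stand together above 0 in saline 4 except H2-DMa at -0.030, and below 0 in PX-478 1.

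Per length, the order of the genes was almost the same in every liver. Levels per kilobase of exon were computed over transcripts paired with a RefSeq mRNA. In saline they were 86.8 ± 29.2 for Cd74, 41.6 ± 12.8 for H2-Aa, 28.6 ± 6.03 for H2-Ab1 and 26.2 ± 8.07 CPM per kilobase for H2-Eb1. The processing genes followed, with Ctss at 13.7 ± 5.01, H2-DMb1 at 4.1 ± 1.2, H2-DMa at 2.51 ± 0.878 and Ciita at 0.407 ± 0.129 CPM per kilobase. Each gene exceeded the next in 7 of 7 libraries, PX-478 included, apart from H2-Ab1 over H2-Eb1, which held in 6. Whether these neighbours differ in level was not tested. The order depends on the length used, and all annotated GENCODE exons of H2-Aa add up to 3798 bases in place of 1128. Over GENCODE exons H2-Eb1 came before both I-A chains in the group means. The saline mean of Ctss, at 13.7, was slightly above 13.5 for H2-Ab1 and 12.4 CPM per kilobase for H2-Aa. In PX-478 the mean of Ctss, at 11.1, was below 12.9 for H2-Ab1 and 11.9 CPM per kilobase for H2-Aa.

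Of the wider class II pathway, 25 of 30 listed genes could be tested, with 14 lower and 11 higher in PX-478 and a median log2 fold change of -0.15. None passed the adjusted threshold in edgeR, DESeq2 or limma-voom, and 5 had an unadjusted p under 0.05 in edgeR, 4 of them lower, beside 6.97% of all genes. Of the 25 tested, 4 lay wholly lower and 2 wholly higher in PX-478, beside 4.29% and 4.3% of all genes. Of the others on the list, Cd80 fell under the count filter, and H2-Eb2, H2-Ea, H2-Oa and H2-DMb2 were not found among the genes listed. The smallest p-values belonged to endosomal proteases that work in antigen processing and in lysosomes generally.

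Ctsd, the aspartic protease cathepsin D, stood at 165, 156, 198 and 158 CPM in saline 1 to 4 and at 91.8, 137 and 91.0 CPM in PX-478 1 to 3. This gave a log2 fold change of -0.67 (standard error 0.21 and adjusted p = 0.531 in edgeR), and the groups did not overlap. Ctsb, cathepsin B, ran from 364 to 401 CPM in control livers and from 212 to 310 CPM in treated livers, for a log2 fold change of -0.54 (SE 0.19). Lgmn, the asparaginyl endopeptidase legumain, ran from 51.3 to 59.6 CPM and from 35.5 to 45.2 CPM (log2 fold change -0.50, SE 0.18). Without saline 4 these 3 proteases had log2 fold changes of -0.70, -0.52 and -0.46. Their adjusted p of 0.531 to 0.602 nonetheless missed the threshold in edgeR.

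On the side of interferon-γ signalling, which drives Ciita, 2 genes had values in opposite directions. Ifngr2, the signalling chain of the interferon-γ receptor, ran from 9.90 to 12.8 CPM in control livers and from 6.69 to 7.72 CPM in treated livers, for a log2 fold change of -0.63 (standard error 0.23 and adjusted p = 0.607 in edgeR). Irf1, a transcription factor that acts on a Ciita promoter, ran from 32.3 to 60.0 CPM in control livers and from 62.0 to 95.4 CPM in treated livers, for a log2 fold change of 0.64 (standard error 0.23 and adjusted p = 0.602 in edgeR). Their values did not overlap between the groups, but both genes were named for small p-values, which go with such separation. Ifngr1, the ligand-binding receptor chain, and the kinase genes Jak1 and Jak2 had log2 fold changes of -0.09, 0.07 and 0.13.

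No DNA-binding factor of the X and Y boxes had an unadjusted p under 0.05 in edgeR. The RFX genes Rfx5, Rfxap and Rfxank had log2 fold changes of -0.35, 0.16 and -0.15, and the NF-Y genes Nfya, Nfyb and Nfyc of -0.15, 0.01 and 0.38. H2-Ob, the β subunit gene of DO, an inhibitor of DM found mainly in B cells, stood at 2.74, 3.56, 1.45 and 3.01 CPM among controls and at 1.88, 1.13 and 0.131 CPM in treated livers, for a log2 fold change of -1.35 (standard error 0.70 and adjusted p = 0.736 in edgeR). For Cd83, which protects surface class II from ubiquitin-driven turnover, edgeR estimated -0.85 (SE 0.42). The ubiquitin ligase genes behind that turnover, Marchf1 and Marchf8, had -0.84 (SE 0.62) and 0.27 (SE 0.16).

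**Figure D4:**
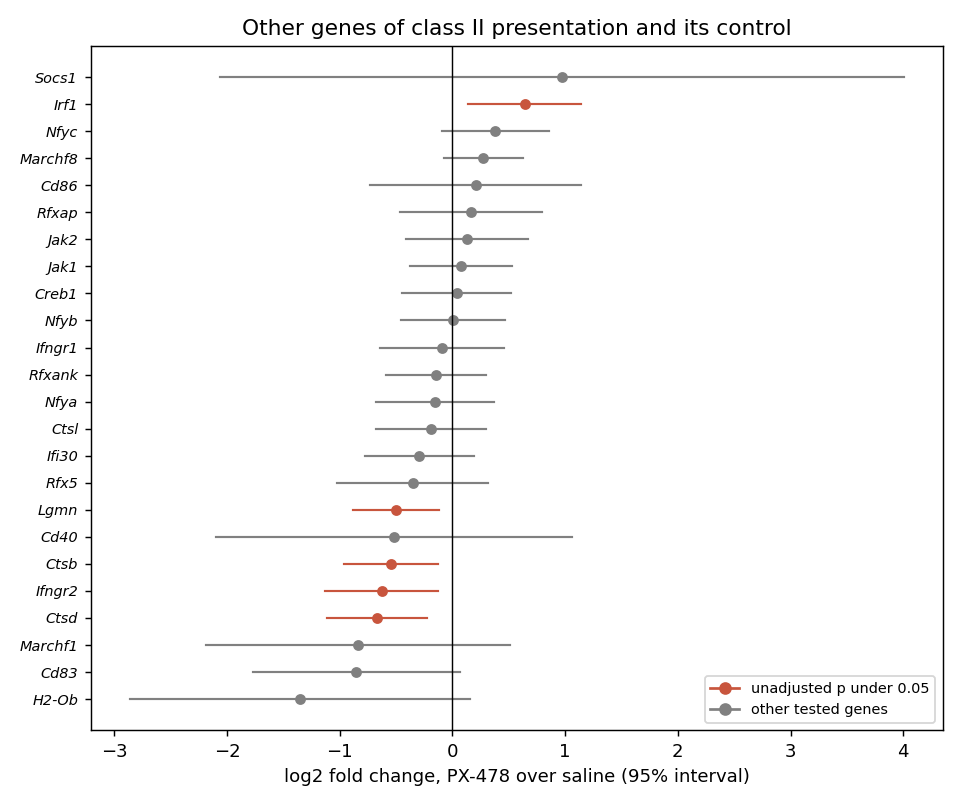
edgeR log2 fold change (PX-478 against saline) with 95% intervals for 24 other genes of class II presentation and its control, sorted by value; red marks an unadjusted p under 0.05. The proteases Ctsd, Ctsb and Lgmn and the receptor gene Ifngr2 lie below 0 and Irf1 above, and none passed after adjustment over all genes.

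Markers of liver cell types, only some of which carry class II, were summed by list in each library. The 15 macrophage and Kupffer cell genes summed to 458, 573, 612 and 828 CPM in saline 1 to 4 and to 404, 424 and 544 CPM in PX-478 1 to 3, with 14 of 15 lower. Their log2 fold changes had a median of -0.43. Without saline 4, 10 were lower and 5 higher, and the median was -0.20. Saline 4 was thus the highest library for this list as well, for the 9 leukocyte genes at 212 CPM against 129 to 177 CPM elsewhere, and for the 11 T and NK cell genes at 20.4 against 6.07 to 11.0 CPM. The 12 dendritic cell genes summed to 71.5 CPM in saline 4, close to the 70.7 CPM of saline 2, and ran from 31.5 to 65.7 CPM in PX-478. Of 12 B cell genes 11 were found, 5 of them (Cd79a, Cd79b, Pax5, Fcrla and Ighd) under the count filter, and their sum ran from 22.8 to 32.9 CPM in control livers and from 8.61 to 24.0 CPM in PX-478. Sinusoidal endothelial genes had the opposite sign, with 8 of 10 higher and sums of 257 to 338 CPM against 310 to 403 CPM. Of 6 monocyte and neutrophil genes found, 4 were lower and 2 higher, with sums of 347 to 572 CPM against 387 to 554 CPM. Fn1 alone ran from 336 to 551 CPM in control livers and from 375 to 541 CPM in PX-478. These sums thus follow Fn1 and say little of the other genes of that list. Hepatocyte genes, which mark the bulk of the tissue, were also lower in 10 of 12, with a median log2 fold change of -0.34, as were most genes of the immune lists. No gene of these lists passed the adjusted threshold in edgeR, and the part of these cell types in the class II levels was not tested.

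The immune markers with the smallest p-values had lower values in PX-478. Cd68, a lysosomal protein of macrophages, stood at 26.1 ± 3.55 CPM in control livers and 13.8 ± 1.02 CPM in PX-478, and Lyz2, lysozyme, at 56.6 ± 13.6 and 26.0 ± 2.18 CPM. Siglech, a marker of plasmacytoid dendritic cells, stood at 3.13 to 6.87 CPM in control livers and 0.326 to 2.42 CPM in PX-478, and the B cell receptor regulator Cd22 at 5.68 to 7.81 and 1.76 to 3.78 CPM. Adjusted p in edgeR was 0.264, 0.179, 0.381 and 0.381 for these 4. They were named for their small p-values and do not stand for their whole lists. Of 11 dendritic cell genes tested, 10 were lower and 1 higher, with a median log2 fold change of -0.27. Without saline 4 the dendritic cell list had 8 lower and 3 higher, with a median of -0.035. Of 6 B cell genes tested, 5 were lower and 1 higher. The lectin gene Clec10a had 13 to 46 reads in saline libraries and 14, 4 and 1 in PX-478 1 to 3. Spi1, the myeloid transcription factor PU.1, and the adaptor gene Tyrobp had log2 fold changes of -0.58 and -0.49, and the endothelial genes Kdr and Oit3 of 0.98 and 0.57. Pecam1, an endothelial adhesion gene added after its values were seen, had -0.47, with all PX-478 values (9.66 to 10.3 CPM) below all saline values (12.7 to 16.9 CPM). The chemokine receptor gene Ccr2 of the monocyte list had 0.81 (SE 0.44), or 1.22 (SE 0.45) without saline 4. Among hepatocyte genes, the transthyretin gene Ttr had -0.57 (SE 0.22) and Apob -0.46 (SE 0.22), both without overlap between the groups. Over all tested genes, 4.29% lay wholly lower and 4.3% wholly higher in PX-478. Against its background of 0.289% of genes called lower, DESeq2 called 2 genes of the macrophage list, 1 of the dendritic cell list and 1 of the B cell list, all lower.

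**Figure D5:**
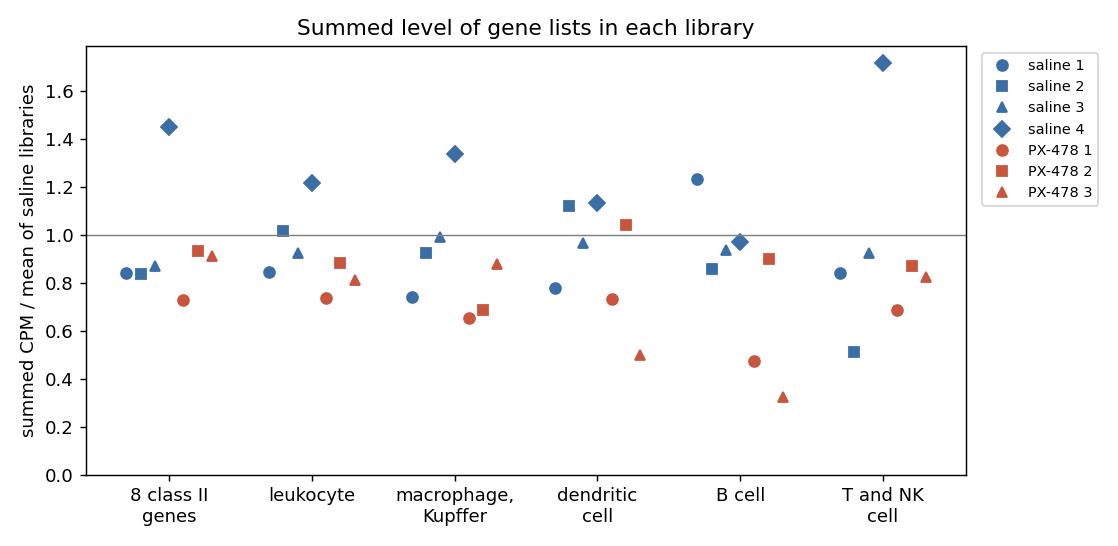
Summed CPM of the 8 class II genes and of 5 marker lists in each library, divided by the mean of the 4 saline libraries. Saline 4 (blue diamond) is highest for class II, leukocyte, macrophage, dendritic cell and T and NK cell genes, and the B cell list is lowest in PX-478 3.

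Ratios of Cd74 to such markers were chosen after the values were seen. Lyz2, Cd68 and Cd22 were picked for their lower values in PX-478, which by itself raises the ratio, so these ratios are a description with no test. Cd74 over Lyz2 was 2.59, 1.67, 1.88 and 2.59 in saline 1 to 4 and 3.95, 4.25 and 3.52 in PX-478 1 to 3. The PX-478 libraries lay above all saline libraries, saline 4 included. Cd74 over Cd68 was 4.68 ± 1.16 in saline and 7.32 ± 0.400 in PX-478, also without overlap. Cd74 over Cd22 was 18.7 ± 5.94 and 43.7 ± 14.4. Against Ptprc, the marker of all leukocytes, Cd74 was 8.24 ± 2.49 and 9.28 ± 2.46, and the groups overlapped.

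Among 11325 other genes whose mean log2 CPM was 1 or more, the 8 whose levels over 7 libraries were most like the standardised mean of the class II genes were Saa1, Saa2, Eif2b1, Itih4, Mrpl38, Cgref1, S1pr1 and Sdc3, with Pearson r of 0.98 to 0.95 as a description. Saa1 and Saa2, which encode acute phase serum amyloids, stood at 364 and 314 CPM in saline 4. In the other 6 libraries Saa1 ran from 21.6 to 67.4 CPM and Saa2 from 11.7 to 60.0 CPM. Itih4, a plasma inhibitor heavy chain and acute phase gene, stood at 894 CPM in saline 4 and at 340 to 533 CPM elsewhere. Mrpl38 stood at 238 CPM in saline 4 and at 62.6 to 99.9 CPM elsewhere. All were picked for this pattern, and no list of acute phase genes was examined. Without saline 4, over 6 libraries, the correlations of the 8 genes were lower, at 0.78 to 0.89. The 8 had been picked for high correlation over libraries that include these 6, so these values are no separate check of the likeness. Saa1 and Saa2 are close copies, and their split of reads is uncertain.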

How the data were processed

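Liver total RNA of 7 mice was sequenced, and groups and replicate numbers come from the sample titles. The authors deposited raw read counts per gene, made with featureCounts against mm10 per the submitters' processing notes, which give no versions. Aligner and strand setting are not given in the sources used here. As deposited by the authors, log2 fold change and unadjusted p-value come from edgeR per the file headers, and both were read for the 8 genes only. Another 7 per-sample average columns were not used.

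The 2 count columns of a mouse differed by less than sampling noise (chi-square per gene 0.291 to 0.765, against 49.1 to 145 between libraries of a group, over genes with more than 20 reads) and were averaged, rounded and counted as 1 sample. Genes passed filterByExpr, were scaled by TMM, and were tested with edgeR 4.0.16 (quasi-likelihood, robust, R 4.3.3), adjusted by Benjamini-Hochberg over 13693 genes at 0.05. Each SE was the size of the log2 fold change divided by the root of the F statistic. In 1 library 3 reads equal 0.188 to 0.260 CPM, which covers counting error only. Ratios between members were compared by exact permutation over 35 assignments. Alternatives used limma 3.58.1, DESeq2 1.42.0, other scalings, filters, columns, a replicate block and each library left out.

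Members and lists were chosen with earlier results of these data known. Named genes are all members, the 8 smallest p-values of the pathway list, the 2 smallest of each cell type list described, and the 8 genes most like the members. Pathway genes beyond these, and Fn1 of the monocyte and neutrophil list, were added after their values were seen. Some genes of the lists are counted in them but not reported here by name. Gene positions are from GENCODE M21 (GRCm38).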

Additional observations from a re-analysis of the deposited data

Results flagged for a closer look

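Among the 4 saline libraries, saline 4 was far from the others in the level of Cd74, at 185 CPM against 99.7 to 107 CPM, with a gap to the next library that took 0.910 of the group's range, above Dixon's limit for 4 samples. The summed level of the 8 class II genes was set apart in the same library, at 405 CPM with TMM scaling and 391 CPM without it. The sum without Cd74 was too, at 220 CPM. Such a limit marks about 1 in 20 groups by chance, and these sums share their genes. Groups of 3, such as PX-478, are not tested this way. H2-Aa, H2-Ab1 and H2-Eb1 were also highest in saline 4 and stayed under the limit, at 0.810, 0.787 and 0.796.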

How the results depend on the processing

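Over 20 alternatives, 151 of 160 log2 fold changes of the 8 genes kept their negative direction, and 1 passed the threshold, that of Ciita at -0.82 when all 14 columns counted as libraries, an alternative chosen after seeing the data. Many alternatives refit nearly the same counts, so this tally does not count separate checks of the direction. The 9 that turned positive were H2-Aa and H2-Ab1 with library size alone as scaling (0.091 and 0.084), which moved the median of all genes from -0.0035 to 0.15, H2-Aa, H2-Ab1 and H2-DMb1 with the replicate block (0.17, 0.074 and 0.0096), and H2-Aa and H2-Ab1 without saline 4 (0.18 and 0.089) and without PX-478 1 (0.087 and 0.079). Saline 4 has no PX-478 mouse of the same number, so with the replicate block it adds nothing to the group difference. That fit is therefore close to leaving saline 4 out, with -0.018 for Cd74 in both, and is no separate check. The cause of the turned signs was not tested. Leaving out 1 library gave -0.37 to -0.018 for Cd74, -0.16 to 0.18 for H2-Aa, -0.16 to 0.089 for H2-Ab1, -0.48 to -0.029 for H2-Eb1, -1.02 to -0.53 for H2-DMa, -0.39 to -0.0036 for H2-DMb1, -0.97 to -0.66 for Ciita and -0.45 to -0.032 for Ctss, and 6 to 8 of the 8 genes lower. With the replicate block 5 of 8 were lower. Same-numbered mice did not deviate together, with correlations of -0.021, -0.067 and 0.0021. Of 3 PX-478 libraries, 0 correlated best with their own number. So few pairs cannot exclude shared housing or processing of same-numbered mice, and the main fit did not pair them.

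Over all genes, 1 was called lower and 0 higher. Leaving out 1 library gave 1 to 3 lower and 0 to 4 higher. DESeq2 called 38 lower and 46 higher, limma-voom 0 and 0, the replicate block 2 lower and 1 higher, library size alone 4 higher, a mean of at least 10 reads in both groups 0 lower, and all 14 columns 717 lower and 643 higher. At an unadjusted p under 0.05 there were 954 genes, against 1064 with limma-voom, 1057 with DESeq2, 884 with the 10-read filter, 719 with the replicate block, 3559 with all 14 columns, and 554 (without PX-478 1) to 1188 (without PX-478 2) with 1 library left out. The difference in summed level, PX-478 mean minus saline mean, was -39.8 CPM, or -12.1 CPM without TMM scaling and -18.0 CPM without Cd74. Ciita with 17 to 57 reads and H2-DMa with 26 to 85 had the widest intervals.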
